A study of Mus musculus with 24 samples.

Results

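At 4 months of age, left ventricles of mice that carried both the Tm180 tropomyosin transgene and a phospholamban knockout (Tm180/PLB KO, 3 arrays) were set against those of nontransgenic mice (NTG, 3 arrays). These 6 arrays were chosen by their titles from the 24 of the series. Pln itself was lost. The natriuretic peptide gene Nppa was 5.05-fold higher, the skeletal myosin binding protein gene Mybpc2 2.92-fold higher and the slow myosin gene Myh7 2.31-fold higher. The myosin kinase gene Mylk4 was 4.14-fold lower, the sodium channel subunit gene Scn4b 2.71-fold lower and the tyrosine breakdown gene Fah 2.31-fold lower. In all, 18 of 15918 genes passed the test, 9 in each direction, and they belong to several functions: contraction, excitability, G protein signalling, fuel use and protein folding.

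The series followed a mouse model of familial hypertrophic cardiomyopathy over time, with and without phospholamban. It measured 4 genotypes (NTG, Tm180, PLB KO and Tm180/PLB KO) at 4 and 12 months on Affymetrix arrays, with 3 arrays per group that the titles call biological replicates. Beside the 6 arrays compared here, the 3 Tm180 and 3 PLB KO arrays of 4 months and the Tm180/PLB KO and NTG arrays of 12 months serve below as reference points. The labels call the Tm180/PLB KO animals α-tropomyosin transgenic and phospholamban knockout, and the NTG animals carry neither change. The labels name no promoter or strain, and no group with a normal tropomyosin transgene was used here, so effects of the mutation and of expressing a transgene cannot be told apart. In the published Tm180 line the cardiac α-myosin heavy chain promoter drives the transgene, so the mutant protein is made in heart muscle cells on top of the mouse's own tropomyosin genes. Phospholamban is missing from every cell of the knockout.

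α-Tropomyosin is a coiled-coil protein that lies along the actin filament and, with troponin, sets how calcium switches on contraction. The Tm180 mutation replaces a glutamate by a glycine, makes the thin filament more sensitive to calcium, and in mice gives thick, fibrotic hearts that relax poorly. Phospholamban is a small membrane protein of the sarcoplasmic reticulum that restrains the calcium pump SERCA2a until it is phosphorylated, so that its removal speeds calcium uptake and relaxation. Hearts under load return to part of a fetal programme, in which Nppa and Myh7 rise and genes of ion channels and fatty acid use often fall.

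Some properties of the 6 arrays touch these results. The Tm180/PLB KO array of replicate 2 is given as 4 months by its title, description and age label, whereas its source name says 12 months; it was kept, and the values that change most without it are given beside the results. The labels do not give sex: the 3 Tm180/PLB KO arrays had Xist levels of 9.61, 9.56 and 10.01 (log2), as did NTG replicates 2 and 3 (9.66 and 10.04), whereas NTG replicate 1 had 4.26 together with Y-linked genes at 7.53, against 3.25 to 3.55 on the other 5 arrays. Immediate-early genes were high on all 3 Tm180/PLB KO arrays and on NTG replicate 1, as described below. Arrays of one group correlated at 0.9615 to 0.9835 over the genes tested, and NTG replicate 1 correlated at 0.9841 with Tm180/PLB KO replicate 1. Where a level is given per array, the order is replicates 1, 2 and 3.

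Promoter sequences are shown for 4 called genes of the contractile apparatus and of cardiac stress. These genes were chosen because they hold motifs of factors known to act in heart muscle. Nppa, Xirp2 and Mybpc2 were higher in Tm180/PLB KO and Mylk4 was lower. Other called genes that hold a motif, such as Myh7, are not shown. Whether the motifs bear on the differences was not tested. The sequences are the 250 bases before the gene's start, on the gene's own strand, from RefSeq GRCm38.p6, with the motif in capitals. The motifs searched were the GATA motif GATAA, the MCAT motif CATTCC and the MEF2 motif, each on both strands.
Nppa, chr4:148000472-148000721, + strand, GATA motif: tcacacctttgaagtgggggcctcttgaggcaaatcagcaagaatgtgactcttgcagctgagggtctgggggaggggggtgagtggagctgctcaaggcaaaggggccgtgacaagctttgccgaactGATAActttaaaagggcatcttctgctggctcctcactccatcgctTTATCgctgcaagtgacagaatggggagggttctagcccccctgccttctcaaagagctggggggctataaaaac
Xirp2, chr2:67445752-67446001, + strand, MEF2 motif: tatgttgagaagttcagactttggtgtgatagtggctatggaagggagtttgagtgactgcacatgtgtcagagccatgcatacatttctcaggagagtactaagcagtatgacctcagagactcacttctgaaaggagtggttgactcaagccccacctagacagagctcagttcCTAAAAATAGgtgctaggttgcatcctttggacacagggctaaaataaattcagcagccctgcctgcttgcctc
Mylk4, chr13:32783965-32784214, - strand, MEF2 motif: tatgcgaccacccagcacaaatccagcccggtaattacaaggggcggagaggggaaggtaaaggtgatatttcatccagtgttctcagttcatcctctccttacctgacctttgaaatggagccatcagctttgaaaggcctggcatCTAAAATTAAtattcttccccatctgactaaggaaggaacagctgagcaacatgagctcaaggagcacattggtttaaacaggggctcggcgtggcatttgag
Mybpc2, chr7:44524670-44524919, - strand, MCAT motif: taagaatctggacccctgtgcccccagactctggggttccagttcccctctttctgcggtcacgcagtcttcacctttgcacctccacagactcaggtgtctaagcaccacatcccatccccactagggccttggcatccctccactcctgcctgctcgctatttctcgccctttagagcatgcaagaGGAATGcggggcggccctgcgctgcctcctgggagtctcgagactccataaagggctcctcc

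GATAA is bound by GATA factors, CATTCC by TEAD factors, and the MEF2 motif by MEF2 factors. Of the 18 called genes, 16 had an entry, of which 5 held GATAA, 5 held CATTCC and 2, Xirp2 and Mylk4, held the MEF2 motif. Among all 32851 promoters, each counted singly, the shares were 22.6%, 12.6% and 2.92%. A called gene was counted if any of its promoters held the motif, so the counts and the shares are not in the same unit. In Nppa the GATA motif occurs 121 to 117 bases before the start and, on the other strand, 75 to 71 bases before it. These matches are descriptions of the sequence; Xirp2, which holds the MEF2 motif, was higher in Tm180/PLB KO, and Mylk4, which also holds it, was lower.

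Pln checks the knockout. Its log2 level was 7.37, 7.63 and 7.05 on the Tm180/PLB KO arrays and 13.68, 13.79 and 13.79 on the NTG arrays. All 3 Tm180/PLB KO arrays lay far below, a difference of -6.41 ± 0.324 (SE, n = 3 and 3) or 84.8-fold (adjusted p = 1.28e-10). The remaining signal stayed above 4.83, the level used as the filter on dim genes. Tpm1, the gene of α-tropomyosin, read 13.27, 13.12 and 13.14 in Tm180/PLB KO and 12.78, 12.87 and 12.83 in NTG, near the top of the array's range, where the highest value was 14.53. The groups did not overlap, but the difference of 0.35 ± 0.0889 did not pass the test (adjusted p = 0.15). It was called when the replicate number was a block (adjusted p = 0.0279). On the reference arrays of 4 months, Tpm1 read 13.11, 13.20 and 13.18 in Tm180 and 12.85, 12.87 and 12.68 in PLB KO. At 12 months it read 13.27, 13.20 and 13.21 in Tm180/PLB KO and 12.78, 12.89 and 12.89 in NTG. Every array with the transgene among these thus lay above every array without it. Whether the Tpm1 probes also read the transgene was not tested.

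The test was limma on the log2 values, fitted to all 24 arrays, with Benjamini-Hochberg adjustment over 15918 genes and a call at an adjusted p under 0.05. The 18 calls are 0.113% of the genes tested, and 1003 genes had an unadjusted p under 0.05, 503 higher and 500 lower. The 1003 are 6.3% of the genes tested, of which 49.1% had a higher mean and 50.9% a lower mean. These shares belong beside the list counts below. The groups did not overlap in any of the 18 called genes, and 1556 of all genes tested (9.78%) had no overlap. Adding a block for the replicate number, shared by both ages, raised the calls to 153 (0.961%), of which 65 were higher and 88 lower. All 18 were among the 153. Leaving out NTG replicate 2 gave 8 calls, Tm180/PLB KO replicate 2 gave 9 and Tm180/PLB KO replicate 3 gave 10. Of the 18 genes, 7 were called whichever of the 6 arrays was left out: Pln, Mylk4, Nppa, Mybpc2, Kctd16, Scn4b and Fah. When the 6 arrays were fitted alone, without the spread of the other groups, 6 of the 18 were called: Pln, Mylk4, Nppa, Mybpc2, Scn4b and Fah. The other 12 had adjusted p-values from 0.0846 (Lrtm1) to 0.26 (Tlcd3b) in that fit, with Kctd16 and Hspa1l at 0.0939 and Xirp2 and Myh7 at 0.127. Tlcd3b and Ramp3 lost their call whichever array was left out. Prps2, Acss1 and Slc16a13 kept it only without replicate 1 of either group, and Gnao1, Myh7 and Plbd1 only without NTG replicate 3 or Tm180/PLB KO replicate 1.

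**Figure D1:**
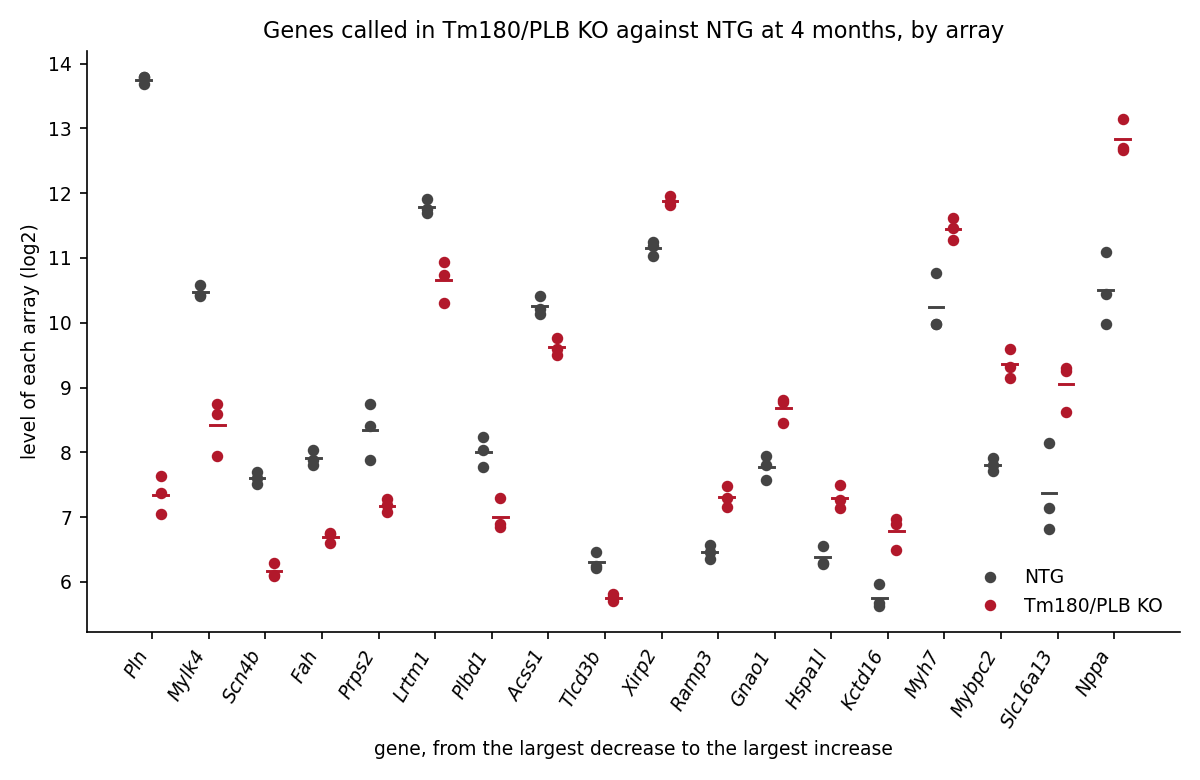
Log2 level on each of the 6 arrays (points) and group mean (lines) for the 18 called genes, from Pln at the left to Nppa at the right. In each gene the 3 Tm180/PLB KO arrays lie on one side of the 3 NTG arrays; Slc16a13, Myh7 and Nppa show the widest spread within NTG.

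Nppa, which encodes the secreted atrial natriuretic peptide, had the largest increase of the called genes. It read 12.69, 13.15 and 12.67 in Tm180/PLB KO and 9.98, 10.44 and 11.09 in NTG, so that the lowest Tm180/PLB KO array was above the highest NTG array. The difference was 2.34 ± 0.28 (adjusted p = 0.000262), and 2.18 without Tm180/PLB KO replicate 2. Myh7, the slow β-myosin heavy chain that adult mouse ventricle makes little of, read 11.28, 11.62 and 11.47 against 9.98, 9.98 and 10.77. NTG replicate 3 was the highest of its group for both genes. Myh7 rose by 1.21 ± 0.207 (adjusted p = 0.0118; up to 0.164 with 1 array left out). Its α counterpart Myh6 was level at 13.18, 13.18 and 13.16 against 13.16, 13.19 and 13.23, with a difference of -0.02 ± 0.0841 (adjusted p = 1).

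Mybpc2 encodes the fast skeletal form of myosin binding protein C. It read 9.32, 9.60 and 9.15 in Tm180/PLB KO and 7.72, 7.91 and 7.80 in NTG, with little spread in either group. It rose by 1.54 ± 0.193 (adjusted p = 0.000381), and by 1.42 without Tm180/PLB KO replicate 2. The cardiac form, Mybpc3, differed by 0.06 ± 0.0805 (adjusted p = 1). Xirp2, an actin-binding repeat protein of the intercalated disc and Z disc, read 11.82, 11.95 and 11.86 against 11.19, 11.03 and 11.25. It rose by 0.72 ± 0.11 (adjusted p = 0.00388; 0.0507 without NTG replicate 2).

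Mylk4, a kinase of the myosin light chain kinase family, had the largest decrease after Pln. It read 8.60, 7.95 and 8.74 in Tm180/PLB KO and 10.59, 10.43 and 10.42 in NTG, and Tm180/PLB KO replicate 2 was lowest. It fell by 2.05 on the log2 scale, with an SE of 0.229 (adjusted p = 0.000129). Without that array the difference was -1.81 (adjusted p = 0.00173).

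In the list of 24 fetal and hypertrophy genes, 4 rose (Nppa, Mybpc2, Xirp2 and Myh7) and none fell. The median difference over the list was 0.32, against -0.003 over all genes tested. At an unadjusted p under 0.05, 11 members of the list were higher, as were 503 of all 15918 genes. Uchl1, a ubiquitin hydrolase, differed by 0.90 ± 0.217 (adjusted p = 0.135; 0.0223 with the block), Ankrd23 by 0.39 ± 0.114 and the matricellular gene Ccn2 by 0.87 ± 0.255. Nppb, the gene of brain natriuretic peptide, read 11.03, 11.53 and 10.78 against 10.04, 10.68 and 10.71, a difference of 0.64 ± 0.257 (adjusted p = 0.647). The groups did not overlap, but the lowest Tm180/PLB KO array lay just above the highest NTG array. The skeletal actin gene Acta1 overlapped between groups, at 12.01, 12.66 and 12.12 against 12.02, 11.32 and 11.16.

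Most sarcomere genes did not pass the test, and the medians of their lists were near 0. With 1 array left out these medians ran from -0.02 to 0.08 for the thick filament, -0.04 to 0.03 for the thin filament and 0.01 to 0.11 for the Z disc and intercalated disc. Of 21 thick filament genes, 2 rose and 1 fell (Mybpc2, Myh7, Mylk4), with a list median of 0.03. Of 22 thin filament genes none was called without the block, 5 were higher and 1 lower at an unadjusted p under 0.05, and the median was 0.02. Nrap, a nebulin-related anchor protein, differed by 0.36 ± 0.108 and was called with the block (adjusted p = 0.019). Among 26 genes of the Z disc and intercalated disc only Xirp2 was called, with a median of 0.07. Flnc, the actin crosslinker filamin C, differed by 0.57 ± 0.172 and was called with the block (adjusted p = 0.0234), and Pdlim3 differed by 0.73 ± 0.198 (adjusted p = 0.209).

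Of the 26 sarcoplasmic reticulum calcium genes, Pln alone was called, and the list median was -0.10. Hrc, a calcium-binding protein of the reticulum, read 10.52, 10.41 and 10.20 against 10.93, 11.18 and 10.73. The groups did not overlap, and the difference of -0.57 ± 0.138 was not called (adjusted p = 0.135) except with the block (adjusted p = 0.00957). The calcium pump gene Atp2a2, whose product phospholamban restrains, read 13.41, 13.31 and 13.38 against 13.48, 13.51 and 13.41, a difference of -0.10 ± 0.076 (adjusted p = 1). The release channel gene Ryr2 differed by -0.30 ± 0.123 (adjusted p = 0.672) and the skeletal calsequestrin gene Casq1 by 0.57 ± 0.231 (adjusted p = 0.651).

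Scn4b, a β subunit of the cardiac sodium channel, was lower on every Tm180/PLB KO array. Its levels were 6.11, 6.10 and 6.29 against 7.60, 7.70 and 7.51, with a wide gap between the groups. It fell by 1.44 on the log2 scale, with an SE of 0.214 (adjusted p = 0.00321). It was the only gene called among 16 genes of sarcolemmal calcium and sodium transport, whose median was -0.04 (-0.10 without NTG replicate 3). The L-type calcium channel gene Cacna1c differed by -0.28 ± 0.0989 (adjusted p = 0.456).

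None of 21 potassium and pacemaker channel genes was called by limma. At an unadjusted p under 0.05, 8 were lower and 2 higher, against 6.3% of all genes tested, and the list median was -0.28. With the block, 2 of the 21 were called lower. Kcnip2, the accessory subunit of the transient outward current, read 8.90, 8.98 and 8.90 against 9.38, 9.89 and 9.83, all Tm180/PLB KO arrays below all NTG arrays. Its difference was -0.77 ± 0.185 (adjusted p = 0.129; 0.00657 with the block). The other, the pacemaker channel gene Hcn2, read 7.04, 7.51 and 7.53 against 7.45, 8.01 and 8.34, groups that overlapped. Kcnd2, a pore subunit of the same outward current, differed by -0.52 ± 0.159 and the inward rectifier gene Kcnj3 by -0.73 ± 0.246.

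In G protein signalling 3 of 38 genes rose and none fell, with a median of -0.01 (-0.02 to 0.04 with 1 array left out). Kctd16, which forms part of GABA-B receptor complexes, read 6.97, 6.50 and 6.89 against 5.97, 5.68 and 5.63 and rose by 1.03 ± 0.149 (adjusted p = 0.00283). Gnao1, the G protein subunit αo, read 8.45, 8.81 and 8.77 against 7.58, 7.80 and 7.95 and rose by 0.90 ± 0.154 (adjusted p = 0.0118). Ramp3, a partner of the calcitonin-like receptor that gives adrenomedullin receptors, read 7.30, 7.16 and 7.48 against 6.57, 6.35 and 6.47. It rose by 0.85 ± 0.163 (adjusted p = 0.0349), and the largest adjusted p with 1 array left out was 0.3. Groups did not overlap in any of these. The largest adjusted p with 1 array left out was 0.127 for Gnao1, without Tm180/PLB KO replicate 2. The endothelin receptor gene Ednrb differed by 0.96 ± 0.258 (adjusted p = 0.205).

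Most genes of mitochondrial fuel use had a lower mean in Tm180/PLB KO. Fah, the last enzyme of tyrosine breakdown, read 6.74, 6.60 and 6.75 against 7.80, 7.89 and 8.03, with a wide gap between the groups. It fell by 1.21 on the log2 scale, with an SE of 0.181 (adjusted p = 0.00321). Acss1, the mitochondrial enzyme that makes acetyl-CoA from acetate, read 9.76, 9.60 and 9.51 against 10.14, 10.42 and 10.21 and fell by 0.63, with an SE of 0.115 (adjusted p = 0.023; 0.131 without Tm180/PLB KO replicate 2). These were the 2 called of 28 genes of acetyl-CoA, ketone and amino acid catabolism, whose median was -0.22. With the block 6 of the 28 were called, all lower, among them the branched-chain aminotransferase gene Bcat2 at -0.40 and the alanine aminotransferase gene Gpt at -0.58.

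None of the 32 fatty acid oxidation genes was called by limma. Of these, 28 had a lower mean and 16 an unadjusted p under 0.05, all 16 lower. Over all genes tested, 50.9% had a lower mean and 6.3% an unadjusted p under 0.05. The list median was -0.30. The mean level of the list was 9.95, 9.77 and 9.79 in Tm180/PLB KO and 10.21, 10.16 and 9.97 in NTG. Tm180/PLB KO replicate 1 thus lay just below NTG replicate 3. With the block 6 of the 32 were called, each lower. Eci1, an isomerase of unsaturated fatty acid breakdown, read 10.33, 10.29 and 10.25 against 10.80, 10.87 and 10.71, without overlap. Its difference was -0.50 ± 0.108 (adjusted p = 0.0829; 0.0197 with the block). The carnitine palmitoyltransferase gene Cpt2 differed by -0.57 ± 0.163 (adjusted p = 0.248; 0.00451 with the block) and Acadvl, the very long chain dehydrogenase, by -0.37 ± 0.102 (adjusted p = 0.227; 0.0393 with the block). The fatty acid transporter gene Slc27a1 differed by -0.70 ± 0.184 (adjusted p = 0.178).

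All 19 genes of the TCA cycle that were tested and 45 of 46 of oxidative phosphorylation had a lower mean, with medians of -0.19 and -0.13; of all genes tested, 50.9% had a lower mean. The oxidative phosphorylation median was -0.07 without NTG replicate 2 and -0.08 without Tm180/PLB KO replicate 3. None passed limma, and 0 and 1 of them had an unadjusted p under 0.05. The array means of the oxidative phosphorylation list overlapped, at 11.25, 11.22 and 11.10 against 11.28, 11.43 and 11.24. Among 31 genes of glycolysis and glucose use, Slc16a13 rose and the median was -0.08, which turned to 0.03 without Tm180/PLB KO replicate 3 and was near 0 without NTG replicate 1 or 2. Fbp2, the muscle fructose bisphosphatase, differed by -1.20 ± 0.263 (adjusted p = 0.0829; 0.0122 with the block), and the platelet phosphofructokinase gene Pfkp by 0.74 ± 0.202 (adjusted p = 0.217).

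Slc16a13, a monocarboxylate transporter, read 8.62, 9.25 and 9.30 in Tm180/PLB KO and 8.14, 6.82 and 7.14 in NTG. NTG replicate 1, whose immediate-early genes were high, stood well above the other NTG arrays. The difference was 1.69 ± 0.31 (adjusted p = 0.0239), and between 1.42 and 2.08 with 1 array left out, with a largest adjusted p of 0.3. Prps2, which makes the precursor of purines and pyrimidines, read 7.28, 7.08 and 7.19 against 7.88, 8.41 and 8.75. It fell by 1.16 on the log2 scale, with an SE of 0.198 (adjusted p = 0.0118; 0.105 without Tm180/PLB KO replicate 2). It was the only call among 25 nucleotide synthesis genes, whose median was 0.04 (0.00 without Tm180/PLB KO replicate 2).

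Hspa1l, a chaperone of the 70 kDa heat shock family, read 7.50, 7.26 and 7.14 against 6.28, 6.56 and 6.30 and rose by 0.92 ± 0.149 (adjusted p = 0.00811; not called without replicate 1 of either group, with adjusted p up to 0.0649). Its sequence is close to that of Hspa1a and Hspa1b, so the probe set may read several genes. Hspa1a read 8.43, 8.35 and 8.92 against 7.09, 6.64 and 6.70, groups without overlap, and a difference of 1.76 ± 0.837 (adjusted p = 0.787). The median over 23 heat shock genes was 0.10. Among 21 genes of the unfolded protein response none was called by limma, 1 had an unadjusted p under 0.05, and the median was 0.09 (0.02 without NTG replicate 3 and 0.17 without NTG replicate 1).

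The 3 remaining called genes are less studied in heart. Lrtm1, a leucine-rich repeat membrane protein, read 10.94, 10.30 and 10.74 against 11.91, 11.75 and 11.69 and fell by 1.12 on the log2 scale, with an SE of 0.184 (adjusted p = 0.00811). Plbd1, a phospholipase B-like protein, read 7.29, 6.89 and 6.85 against 8.03, 8.23 and 7.78 and fell by 1.01, with an SE of 0.189 (adjusted p = 0.0286). Tlcd3b, a membrane protein with a TLC domain, read 5.77, 5.81 and 5.70 against 6.24, 6.21 and 6.47, not far above the dim filter, and fell by 0.54, with an SE of 0.101 (adjusted p = 0.0269). Without Tm180/PLB KO replicate 2 the adjusted p was 0.105 for Lrtm1, 0.19 for Plbd1 and 0.105 for Tlcd3b; Lrtm1 also lost its call without NTG replicate 1 or 2.

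A further 28 genes had an adjusted p from 0.05 to 0.1, 11 higher and 17 lower. Lgi1, a secreted leucine-rich protein, differed by -1.79 ± 0.40, Mme, the peptidase neprilysin that degrades natriuretic peptides, by -1.08 ± 0.218, Maob, the amine oxidase MAO-B, by -1.05 ± 0.216, and the mitochondrial carrier gene Slc25a34 by -0.77 ± 0.155. Myl1, a skeletal muscle light chain, read 6.25, 6.08 and 5.95 against 7.06, 7.42 and 7.04, without overlap. Its difference was -1.08 ± 0.246 (adjusted p = 0.0949, and 0.000473 with the block).

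Most extracellular matrix genes had a higher mean in Tm180/PLB KO, and none passed the test gene by gene. Of 55, limma called none, 46 had a higher mean, and 17 were higher and 1 lower at an unadjusted p under 0.05. Over all genes tested, 49.1% had a higher mean and 6.3% an unadjusted p under 0.05 in either direction. The list median was 0.38. It was 0.23 without NTG replicate 1, 0.32 without Tm180/PLB KO replicate 2 and at most 0.55 with another array left out. Postn, the matricellular protein periostin of activated fibroblasts, read 9.58, 9.85 and 9.75 against 7.70, 8.35 and 8.99, with no overlap but a wide NTG range. Its difference was 1.38 ± 0.304 (adjusted p = 0.0829; 0.0318 with the block). Cilp, a cartilage matrix protein also made by cardiac fibroblasts, read 6.38, 6.94 and 6.92 against 5.85, 5.57 and 6.19, a difference of 0.88 ± 0.191 (adjusted p = 0.0829; 0.0234 with the block). With the block Mmp2 (0.68) and Tgfb3 (0.51) were called as well, making 4. Mfap5 differed by 1.01 ± 0.258 (adjusted p = 0.156) and Vcan by 0.95 ± 0.245 (adjusted p = 0.159).

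Transcription of immediate-early genes is switched on rapidly by many stimuli, and this list had the largest median difference of all the lists. Of 29, none was called by limma, 20 were higher at an unadjusted p under 0.05, 28 had a higher mean, and the median was 1.31. Over all genes tested, 49.1% had a higher mean and 6.3% an unadjusted p under 0.05. The mean level of the list was 8.32, 8.60 and 8.46 in Tm180/PLB KO and 8.01, 6.90 and 6.79 in NTG. NTG replicate 1 lay just below the Tm180/PLB KO arrays and the other NTG arrays well below. Nr4a1, an orphan nuclear receptor, read 11.29, 11.10 and 11.40 against 9.86, 7.88 and 7.27 (difference 2.93 ± 0.978, adjusted p = 0.431). Dusp1, a phosphatase of MAP kinases, differed by 1.31 ± 0.373 (adjusted p = 0.25). The list of fasting and glucocorticoid genes had a median of 0.64 over 15 genes (0.32 without NTG replicate 3), and NTG replicate 1 was again highest of its group (8.04 against 7.48 and 7.33).

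A covariate for the immediate-early level of each array, chosen after seeing the data, gave 13 calls, 11 of them among the 18. Those not called were Lrtm1, Prps2, Acss1, Slc16a13, Tlcd3b, Plbd1 and Ramp3; Slc16a13 then differed by 1.07 (adjusted p = 0.12) and Ramp3 by 0.60 (adjusted p = 0.252). List medians moved unequally with this covariate. The extracellular matrix median was 0.32, that of fatty acid oxidation -0.29 and that of the fetal and hypertrophy genes 0.37. The potassium and pacemaker channel median went from -0.28 to -0.15, the activated fibroblast median from 0.41 to 0.18 and the fasting and glucocorticoid median from 0.64 to 0.02. The sign turned for many lists. Among them were heat shock genes (0.10 to -0.11), the unfolded protein response (0.09 to -0.32), atrial markers (-0.08 to 0.28) and endothelial markers (-0.05 to 0.21). Conduction system markers (-0.18 to 0.09), neutrophil and platelet markers (0.01 to -0.30) and oxidative stress genes (0.06 to -0.08) turned too, as did further lists with medians near 0. With the level of Y-linked genes as a covariate, also added later, all 18 were among the 36 called.

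**Figure D2:**
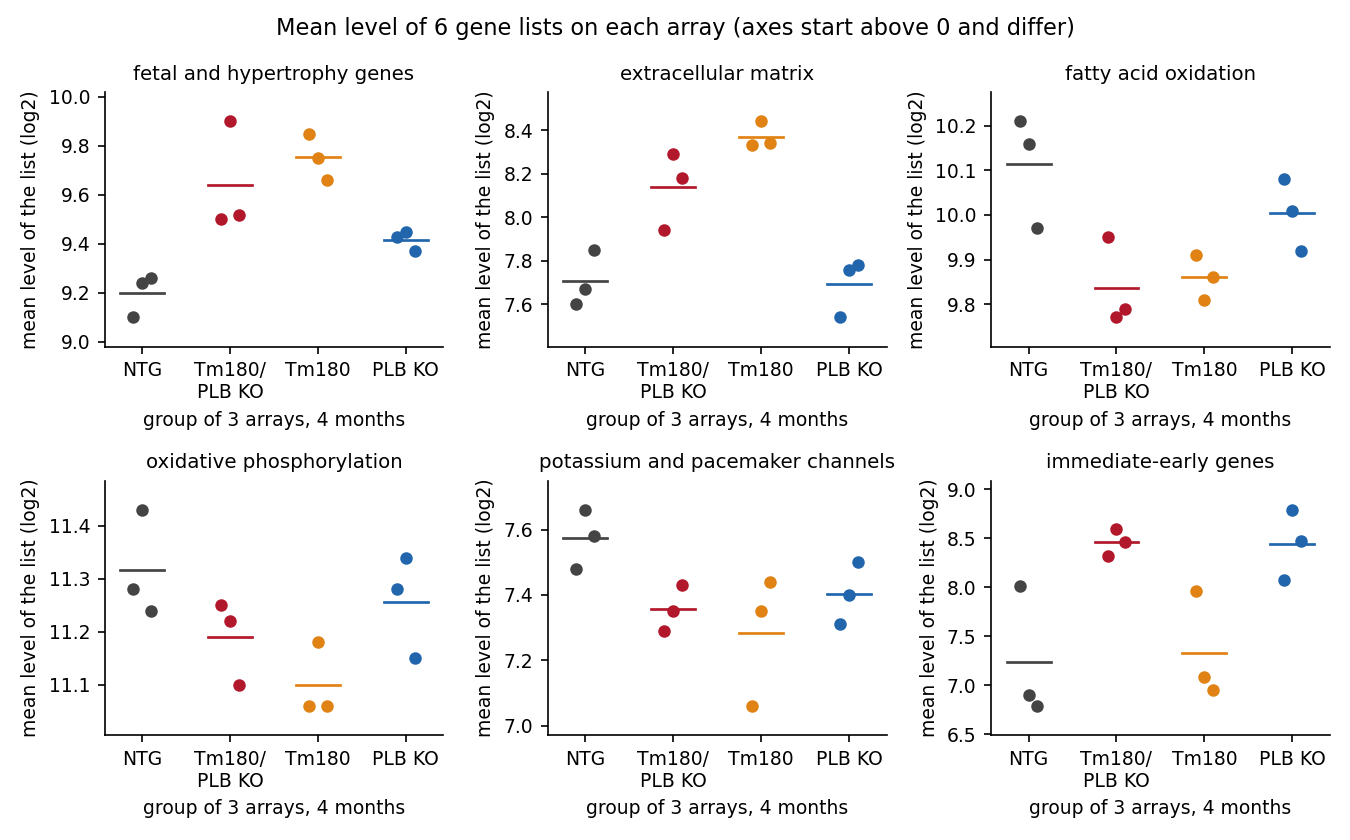
Mean log2 level of 6 gene lists on each 4-month array (points) with group means (lines); axes differ and do not start at 0. Extracellular matrix genes were at 7.94 to 8.29 in Tm180/PLB KO and 7.60 to 7.85 in NTG, and immediate-early genes at 8.32 to 8.60 in Tm180/PLB KO with one NTG array at 8.01 and the others at 6.90 and 6.79.

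Marker genes checked the labelled tissue. The ventricular genes Myl2 (13.23, 13.18 and 13.09 against 13.14, 13.22 and 13.06) and Myh6 were near the top of the range in both groups. Of 10 ventricular markers tested Pln alone was called. Of 10 atrial markers Nppa alone was called: Myl7 read 5.22, 7.61 and 4.97 against 4.93, 7.81 and 6.20, differing by -0.38 ± 0.843, and Myl4 and Sln each differed by -0.10. Replicate 2 had the highest Myl7 in both groups. The atrial list had a median of -0.08, with 7 of 10 lower in mean, and its direction depended on single arrays: it was -0.24 without Tm180/PLB KO replicate 2, 0.13 without Tm180/PLB KO replicate 3, 0.06 without its replicate 1 and 0.02 without NTG replicate 2. Its mean level was 6.82, 7.64 and 6.77 against 6.45, 7.21 and 7.05.

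Other cell types were compared by the same lists; in bulk tissue, fewer cells of a type and less RNA per cell cannot be told apart. Medians were 0.29 over 11 fibroblast markers, 0.41 over 12 activated fibroblast markers, -0.05 over 12 endothelial, -0.04 over 12 smooth muscle and pericyte, and 0.02 over 13 macrophage markers, and limma called none of these markers (unadjusted p under 0.05 in 4, 3, 2, 1 and 1). The fibroblast median was 0.18 without NTG replicate 1. The endothelial median ran from -0.18 without NTG replicate 1 to 0.03 without NTG replicate 3, and the macrophage median from -0.22 to 0.17 without the same arrays, so neither had a settled sign. The smooth muscle and pericyte median was -0.12 without NTG replicate 1. With the block, 2 activated fibroblast markers and 1 endothelial marker were called, all higher. The activated fibroblast level was 6.99, 7.23 and 7.12 against 6.59, 6.66 and 6.86, all Tm180/PLB KO arrays above all NTG arrays, in step with the extracellular matrix list, with which it shares genes; its part in that result was not tested. All 9 epicardial and mesothelial markers had a higher mean (median 0.41), led by Wt1 at 0.55 ± 0.178 (adjusted p = 0.389). The mean level of these markers was 6.17, 6.39 and 6.43 against 6.16, 5.82 and 5.97. Replicate 1 of Tm180/PLB KO thus lay just above replicate 1 of NTG. Cldn5, the tight junction protein of endothelium, read 8.72, 8.57 and 8.68 against 7.72, 7.13 and 7.38 (1.25 ± 0.275, adjusted p = 0.0829; 0.0354 with the block).

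The Tm180/PLB KO hearts were next set against each single genotype of the same age. Against Tm180, which asks what the knockout adds on the transgenic background, limma called 3 genes (0.0188%; 619 at an unadjusted p under 0.05). They were Pln (-6.33 ± 0.324), Slc16a13 (2.04 ± 0.31, adjusted p = 0.0148) and Bcl6b (1.43 ± 0.242, adjusted p = 0.0406), a transcriptional repressor of endothelium. Slc16a13 read 6.94 to 7.11 in Tm180, all below the lowest Tm180/PLB KO array, and 8.10, 8.27 and 8.76 in PLB KO. Bcl6b read 9.30, 9.69 and 9.56 in Tm180/PLB KO, 7.86, 7.87 and 8.54 in Tm180 and 8.73, 8.98 and 9.41 in PLB KO. The count was 1 without Tm180 replicate 2, Tm180/PLB KO replicate 2 or Tm180/PLB KO replicate 3. With the block 15 genes were called (0.0942%), adding among others Myl1 at -0.93 and the stress phosphatase subunit gene Ppp1r15a at 1.06. Immediate-early genes had a median of 1.04 in this comparison, and their part in it was not tested.

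Against PLB KO, which asks what the transgene adds on the knockout background, limma called no gene (0%). At an unadjusted p under 0.05 there were 436 genes (2.74%), a share below the threshold itself. With the block 22 were called (0.138%), 18 of them higher in Tm180/PLB KO. Of the 22, 7 belong to the extracellular matrix list and all 7 were higher, among them Postn (1.80, adjusted p = 0.0281), Mfap5 (1.34, 0.0439), Cilp (1.12, 0.0219), Col1a1 (1.03, 0.0491) and Mmp2 (0.92, 0.00413). Postn read 7.82, 8.12 and 7.85 in PLB KO, well below each Tm180/PLB KO array. Fah (-0.91, adjusted p = 0.0281) and Mylk4 (-0.86, 0.0485) were called lower. Without the block, limma called 1 gene when Tm180/PLB KO replicate 1 was left out. Over the 55 matrix genes the median was 0.41 against PLB KO and -0.24 against Tm180, and the immediate-early median against PLB KO was 0.07. All 3 PLB KO arrays had Xist near 4 and high Y-linked genes, unlike the 3 Tm180/PLB KO arrays, so that genotype and sex as read from these genes cannot be told apart here.

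Beside each other, and against the same 3 NTG arrays, the called genes stood as follows. Limma called 81 genes in Tm180 and 1 in PLB KO. Of the 17 genes other than Pln called in Tm180/PLB KO, 16 had the same sign in Tm180 and 11 were called there. All 17 had the same sign in PLB KO and 0 were called there. Mybpc2 differed from NTG by 1.54 in Tm180/PLB KO, 0.97 in Tm180 and 0.68 in PLB KO. Mylk4 differed by -2.05, -1.69 and -1.19, and Scn4b by -1.44, -1.07 and -0.65. Nppa differed from NTG by 2.42 ± 0.28 in Tm180, and Tm180/PLB KO differed from Tm180 by -0.09 ± 0.28 (adjusted p = 1). Myh7 differed from NTG by 1.85 ± 0.207 in Tm180, and its difference between Tm180/PLB KO and Tm180 was -0.65 ± 0.207 (adjusted p = 0.727). Ramp3 differed from NTG by 0.15 in Tm180 and 0.20 in PLB KO. List medians in Tm180 against NTG were 0.46 for fetal and hypertrophy genes, 0.58 for extracellular matrix and -0.38 for potassium and pacemaker channels. They were -0.29 for fatty acid oxidation and 0.14 for immediate-early genes. In PLB KO the extracellular matrix median was -0.14 and the immediate-early median 1.24. Since the 3 comparisons share the NTG arrays, these values are given side by side only. The genes were chosen by their call in Tm180/PLB KO, which favours larger differences there.

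**Figure D3:**
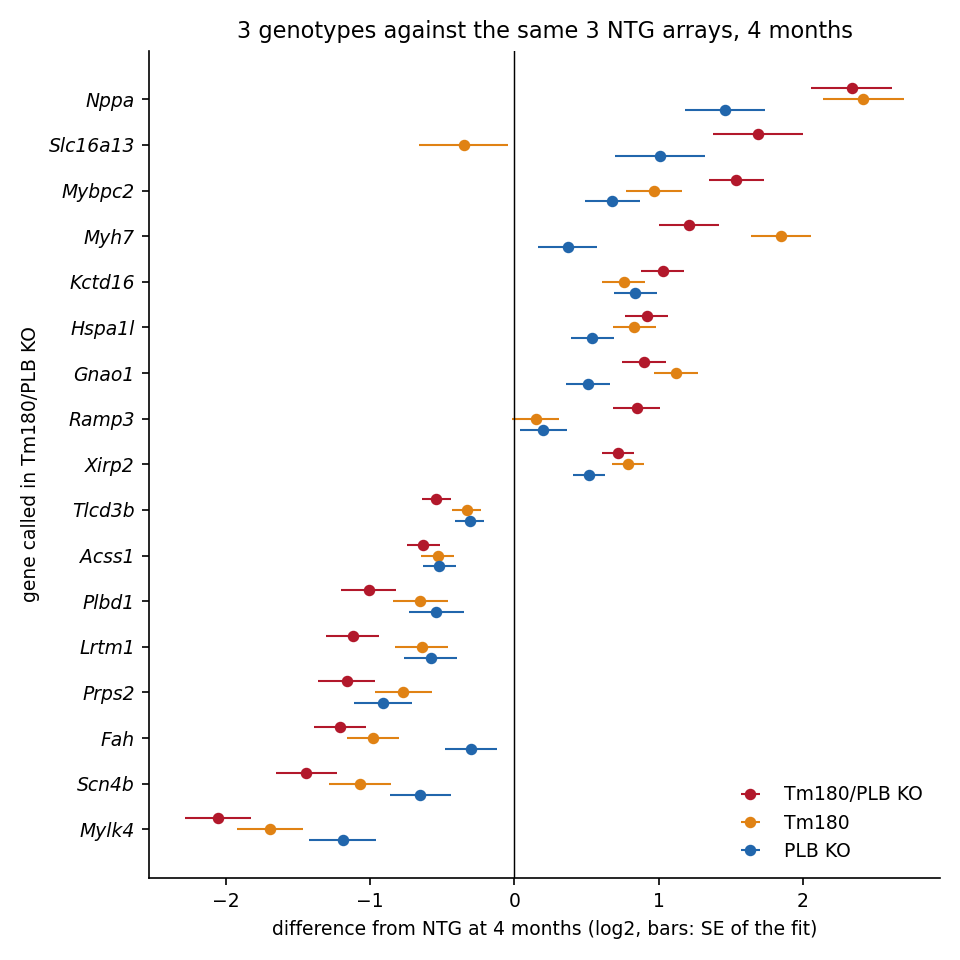
Log2 difference from NTG at 4 months with the SE of the fit for the 17 called genes other than Pln in Tm180/PLB KO, Tm180 and PLB KO. Slc16a13 is the gene whose Tm180 value (-0.35) lies on the other side of 0 from its Tm180/PLB KO value (1.69).

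Whether the genotypes add on the log2 scale was tested by the interaction. Limma called no gene (0%), with 190 genes (1.19%) at an unadjusted p under 0.05. None was called with the block either, with 585 at an unadjusted p under 0.05. The share of 1.19% is below the threshold itself, so the absence of calls does not show that the genotypes add. For Nppa the interaction was -1.55 ± 0.395 (unadjusted p = 0.000806), for Myh7 -1.01 ± 0.293 and for Xirp2 -0.59 ± 0.156, each with an adjusted p of 1. The count was 1 without Tm180 replicate 1. All PLB KO arrays had low Xist and high Y-linked genes, all Tm180/PLB KO arrays the reverse, and NTG and Tm180 held both kinds. The interaction and sex as read from these genes therefore cannot be told apart here.

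At 12 months Tm180/PLB KO was compared with NTG on 6 other arrays. Tm180/PLB KO replicate 2 had low Xist (4.17) and high Y-linked genes (7.72), as did NTG replicate 3 (4.59 and 7.29), unlike the others. The immediate-early level was 7.14, 8.22 and 7.20 in Tm180/PLB KO and 7.87, 6.84 and 7.06 in NTG. The part of these differences in the results was not tested. Limma called 68 genes (0.427%), 19 higher and 49 lower, and 372 with the block. The count was 18 without Tm180/PLB KO replicate 2, 28 without its replicate 3, 41 without its replicate 1 and 24 without NTG replicate 2. Of the 18 genes called at 4 months, 16 differed in the same direction at 12 months, against 63.9% of all genes tested. Of the 18, 13 were called again, which is 72.2% of the 18 and 19.1% of the 68. Pln, knocked out at both ages, is among the 16 and the 13. Without Pln, 15 of 17 had the same direction. Of the 68, 66 had the same direction at 4 months and 60 of them an unadjusted p under 0.05 there, against 6.30% of genes tested. Both comparisons came from 1 fit that shares each gene's spread, so the calls at the 2 ages are not independent. With the 12-month groups fitted alone, 12 genes were called.

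Several contractile and excitability genes were called at both ages. Nppa differed by 2.14 at 12 months, Mybpc2 by 1.55, Mylk4 by -2.02, Scn4b by -1.45, Xirp2 by 0.88, Kctd16 by 1.27 and Gnao1 by 0.97, all called. Myh7 differed by 0.80 ± 0.207 and was not called (adjusted p = 0.114). Its NTG level was 9.98, 9.98 and 10.77 at 4 months and 11.18, 11.61 and 11.46 at 12 months, and its Tm180/PLB KO level was 12.28, 12.11 and 12.27 at 12 months. Lrtm1 (-0.62) and Tlcd3b (-0.24) were not called either.

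Slc16a13 and Ramp3 were the 2 of the 18 whose sign differed at 12 months. Slc16a13 read 6.79, 7.40 and 6.91 in Tm180/PLB KO at 12 months and 7.43, 6.86 and 7.12 in NTG, groups that overlapped, a difference of -0.11 ± 0.31. Ramp3 read 6.45, 6.62 and 6.69 against 6.89, 6.67 and 6.66, a difference of -0.16 ± 0.163. The change between ages was -1.80 ± 0.439 for Slc16a13 and -1.01 ± 0.231 for Ramp3, both with an adjusted p of 1. Over all genes limma called no difference between the ages (0%), and 1 gene with the block. Without the block 199 genes (1.25%) had an unadjusted p under 0.05, a share below the threshold itself. The absence of calls therefore does not show that the ages are alike.

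**Figure D4:**
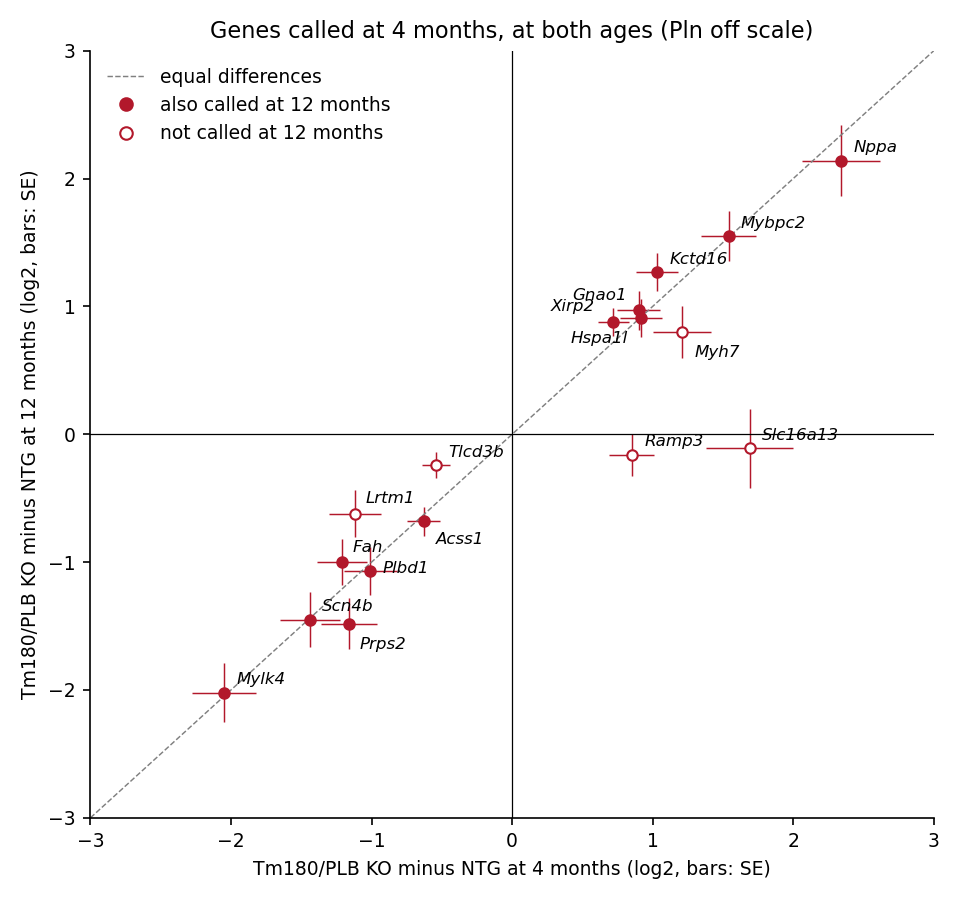
Log2 difference of Tm180/PLB KO from NTG at 4 months (horizontal) and 12 months (vertical) for 17 called genes, with SE bars; filled points were called at both ages and the dashed line marks equal differences. Slc16a13 and Ramp3 lie near 0 on the 12-month axis, at -0.11 and -0.16.

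List medians at the 2 ages were as follows. The immediate-early median was 1.31 at 4 months and 0.21 at 12 months. The fatty acid oxidation median was -0.30 at 4 months and -0.42 at 12 months, when all 32 genes had a lower mean and 4 were called. The extracellular matrix median was 0.38 and then 0.51, with 2 genes called, and that of acetyl-CoA, ketone and amino acid catabolism -0.22 and then -0.23. The fetal and hypertrophy list had medians of 0.32 and 0.13, with 5 genes called at 12 months, Nppb among them (adjusted p = 0.00708). The epicardial and mesothelial list went from 0.41 to -0.11, and the fasting and glucocorticoid list from 0.64 to -0.24.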

How the data were processed

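The deposited table holds log2 expression values of 35557 Affymetrix probe sets on 24 left ventricular arrays, which the authors made with RMA per the submitters' processing notes; the sources used here give no version, settings or genome build. RMA sets the arrays to a common distribution, so array medians (5.777 to 5.901) carry no depth, and the number of arrays limits the precision. Per the labels' protocols, RNA was extracted with Trizol, cleaned on a column and labelled from 300 ng.

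Groups follow the titles. Probe sets with exactly 1 gene symbol in the platform annotation (21789) gave 19938 genes, the brightest probe set being used for the 999 genes with several. Genes above 4.83, the 25th percentile, on at least 3 arrays were kept (15918). Limma 3.58.1 (R 4.3.3) fitted 8 group means to 24 arrays with 16 residual degrees of freedom, and all adjusted p-values are limma's with Benjamini-Hochberg adjustment. The fit was tested on simulated data in which the arrays varied independently. That test therefore did not cover variation shared between arrays. Differences are given with the SE of the fit. The p-values measure the spread between arrays, which the titles call biological replicates.

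The replicate numbers were checked as pairs. In the main comparison the deviations of same-numbered arrays from their group means correlated at 0.234, 0.163 and 0.677 over genes. Arrays with different numbers correlated at -0.450 to 0.259, and Tm180/PLB KO replicate 2 correlated better with NTG replicate 1 (0.259) than with its own number (0.163). All same-numbered pairs passed 0.1 in the comparisons with Tm180, PLB KO and NTG at 12 months too. The pairing comes from these correlations, since the labels do not explain the letter that goes with the number in the descriptions. Correlations were taken only between groups of the same age. The block used the replicate number over all 24 arrays, so same-numbered arrays of both ages shared a block effect. Whether same-numbered arrays go together across ages was not tested. Counts with the replicate number as a block are therefore given only beside the main counts.

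Named genes were Pln, Tpm1, every called gene with an established symbol, and up to 4 more of each list by lowest p; Myh6, Myl2, Mybpc3, Atp2a2, Nppb, Myl4, Sln, Gpt, Bcat2, Hcn2, Tgfb3, Col1a1, Ppp1r15a, Ryr2 and the genes with an adjusted p from 0.05 to 0.1 were added after their values were seen. The comparison and the gene lists were chosen with earlier results of these data known. Promoters come from RefSeq GRCm38.p6. Alternatives were the block, array weights, the 6 arrays alone, other filters, median centring, a mean over probe sets, a trended robust prior, leaving out each array, and 2 covariates.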

Additional observations from a re-analysis of the deposited data

Results flagged for a closer look

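Cpt1a, the liver form of the carnitine palmitoyltransferase that admits long chain fatty acids to mitochondria, had differences of opposite sign at the 2 ages, neither called at 4 months nor in the test between ages. It differed by 0.17 on the log2 scale between Tm180/PLB KO and NTG at 4 months, with all 3 Tm180/PLB KO arrays (8.15, 7.96 and 8.04) above all 3 NTG arrays (7.95, 7.78 and 7.91), and by -0.42 at 12 months. The adjusted p of the difference between ages was 1 in limma.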

How the results depend on the processing

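The main comparison (18 genes called) gave 153 with the replicate block, 309 with array weights and 36 with the Y-linked covariate, and 12 to 24 under the other settings that kept all arrays; with 1 array left out it gave 8 to 20. The call direction of the 18 genes and of Tpm1 did not turn under any setting run. Over those 19 genes, settings that kept all the compared arrays gave 169 values on the same side of the threshold, 2 newly past it and 19 no longer past it; leaving out an array gave 72 and 42 on the same and the lost side. The losses came from fitting the 6 arrays alone, where 6 of the 18 kept their call, and from the immediate-early covariate. The comparison with Tm180 (3 genes) gave 15 with the replicate block, 7 with array weights, 18 with the compared groups alone and 1 to 4 with 1 array left out. That with PLB KO (0 genes) gave 22 with the replicate block, 5 with array weights, 10 with the groups alone, 3 with the filter at the 50th percentile, 3 with a trended robust prior and 0 to 1 with 1 array left out. The interaction (0 genes) gave 0 to 1 with 1 array left out. The 12-month comparison (68 genes) gave 372 with the replicate block, 116 with array weights, 12 with the groups alone and 18 to 63 with 1 array left out, and the difference between ages (0 genes) gave 1 with the replicate block and 1 with array weights. The causes were not tested. The number of arrays, 3 a group, limits the precision, and genes not above 4.83 on at least 3 arrays were not tested.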
